A study of Mus musculus with 6 samples.

Results

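The 3 libraries described here came from jejunal organoids that had received the vehicle DMSO, 3 of the 6 libraries of a study of the nuclear receptor HNF4a. Organoids of this kind are three-dimensional cultures of intestinal epithelium that hold stem cells, dividing progenitors, absorptive enterocytes and secretory cells. They were grown from C57BL/6 mice of the genotype Villin-CreERT2 with both Hnf4a alleles floxed, so that the Cre recombinase, made under the promoter of the epithelial gene villin, acts only once 4-hydroxytamoxifen (4OHT) is given. The DMSO group carried these alleles and the Cre without 4OHT. The study's other group, 3 libraries from organoids given 0.5 µM 4OHT for 24 h, enters here only through the scaling of the libraries and the check of Hnf4a. All cultures received 200 ng/mL recombinant mouse Wnt3A and were collected 2 days after they were last passaged, and poly(A) RNA was sequenced from 250 ng of total RNA. Added Wnt3A means that these are levels in a Wnt-supplemented culture, and no library without it was analysed here. No age or sex of the animals was given, and nothing stated whether the 3 replicates came from separate animals or cultures, so the spread between them may be technical.

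The small intestinal epithelium renews itself from stem cells at the crypt base that depend on Wnt signals, partly supplied by the neighbouring Paneth cells. Their daughters divide and then take either the absorptive path, under transcription factors such as the HNF4, CDX and GATA families, or the secretory path, which yields Paneth, goblet, enteroendocrine and tuft cells. Organoids keep this hierarchy without nerves, vessels, immune cells or connective tissue.

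Total counts were 35638347, 36102703 and 31537100 in replicates 1, 2 and 3. The unit of level is CPM, the count of a gene relative to the scaled total of its library, and levels of different genes are set against each other only as RPKM, CPM per kilobase of annotated exon. A count of 0 in a library allows up to 3 counts, which is 0.0834, 0.0817 and 0.0975 CPM in replicates 1, 2 and 3. This limit covers counting error only. Hnf4a stood at 839.8, 846.2 and 1021 CPM in the DMSO libraries and at 435.9, 423.7 and 481.7 CPM in the 4OHT libraries, in the direction of their labels. Replicate 3 stood apart from replicates 1 and 2. It was the library farthest from the median for 5938 (63.5%) of the 9354 genes averaging 10 CPM or more. The value in every library is therefore given beside the means.

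The transcriptome was spread over many genes. Of the 18448 genes in the table, 11958 reached 1 CPM, 9129 reached 10 CPM and 2239 reached 100 CPM in all 3 libraries, and 67 reached 1000 CPM. The 10 most abundant genes held 5.19%, 4.84% and 4.64% of the counts in replicates 1, 2 and 3. It took 1060, 1057 and 1012 genes to hold 50% of the counts. Transcripts of the mitochondrial genome held 2.32%, 1.91% and 1.9% of the counts, and the 83 cytosolic ribosomal protein genes held 5.35%, 5.85% and 5.82%. The mitochondrial share is uncertain, because several of its genes share most of their sequence with nuclear copies and stood near 0. Some ribosomal protein genes also share much of their sequence with other genes, so their share carries a similar limit. Of the 1000 highest genes by RPKM in each library, 973 were the same in replicates 1 and 2 and 890 were the same in all 3.

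By RPKM the highest genes were those of respiration, translation, the keratin cytoskeleton and the luminal galectins. The mitochondrial cytochrome oxidase gene mt-Co1 came first, with 10281, 7996 and 8416 CPM and 5759 ± 787 RPKM (SD, n = 3), although only 60.2% of its 75-base windows occur in no other gene. Eef1a1, the elongation factor that carries aminoacyl-tRNA to the ribosome, followed with 8350, 9077 and 9786 CPM and 3639 ± 288 RPKM. Its order relative to the next gene, mt-Nd1 of respiratory complex I with 3473 ± 373 RPKM, was not separate between libraries. The list of the 25 highest held 5 mitochondrial genes and 7 ribosomal protein genes, led by Rplp1 with 2356 ± 171 RPKM. Of the 75-base windows, 54.1% in Rplp1 and 39.8% in Rps3a1 occur in no other gene, against 97.1% in Rpl8. For Eef1a1 and Krt8 the share was 73.4% and 78%. The levels of such genes depend on how reads with more than 1 match were counted. Among the 100 highest, 38 were ribosomal protein genes. Eef2, the translocase of the ribosome, reached 1187 ± 79 RPKM, and the chaperone Hsp90ab1 reached 1208 ± 73.3 RPKM. Ptma, a small acidic nuclear protein, reached 1120 ± 53 RPKM.

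Epithelial products took the remaining places near the top. Krt8, the type II keratin of simple epithelia, had 7079, 6186 and 4957 CPM, and its type I partners Krt19 and Krt18 had 4595, 4021 and 3414 CPM and 2385, 2158 and 1364 CPM. All 3 keratins were lowest in replicate 3. Together Krt8, Krt18 and Krt19 held 1.42%, 1.26% and 0.95% of the counts of replicates 1, 2 and 3. The galectin Lgals2, a lectin of the gastrointestinal epithelium, had 1156, 1190 and 2053 CPM, and Lgals4 had 2682, 2566 and 2939 CPM. Defa24, an alpha-defensin of Paneth cell granules, was the 14th gene with 1224 ± 202 RPKM, from 440.5, 492.5 and 605.9 CPM on a short transcript. Tff3, the goblet cell trefoil peptide, ranked 22nd with 378, 399.7 and 612 CPM. Of the 24 pairs of neighbours in this list, only 2 were in the same order in all libraries without overlap, mt-Co1 above Eef1a1 and Krt19 above mt-Nd2. The order of the other neighbours is not resolved by 3 libraries. Genes farther apart in the list can separate, as Eef1a1 with at least 3349 RPKM and Actb with at most 1392 RPKM.

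**Figure D1:**
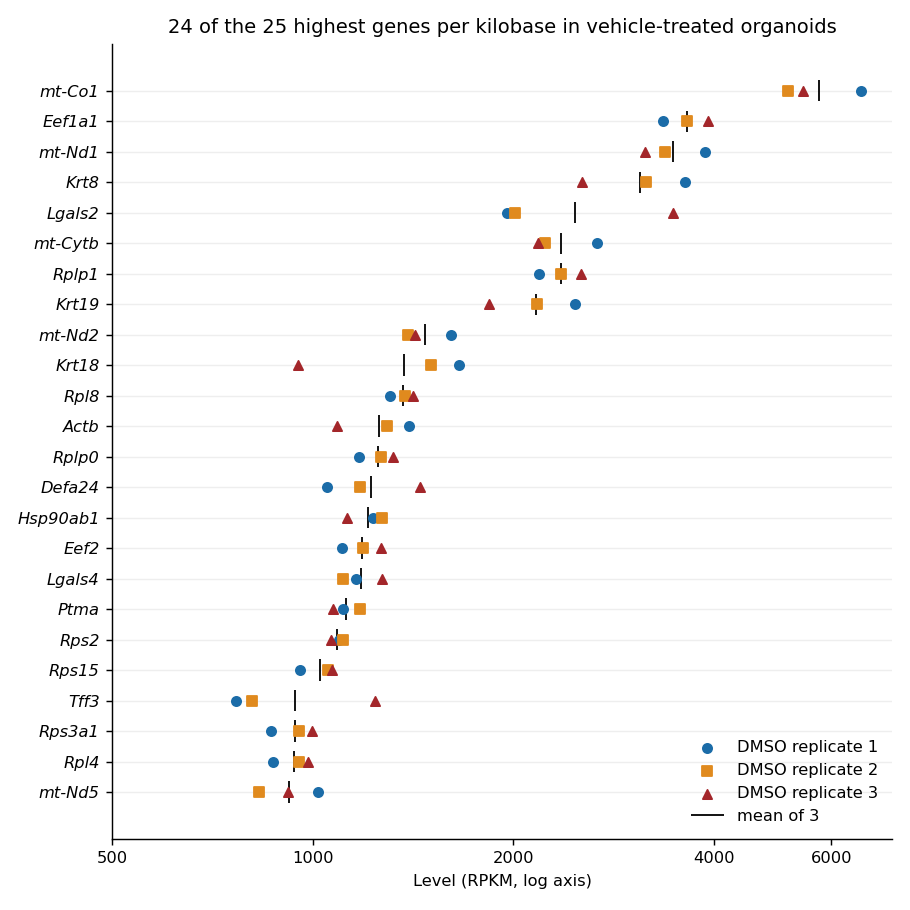
Level in RPKM (log axis) of 24 of the 25 genes with the highest mean, with 1 point for each of the 3 DMSO libraries and a tick at their mean. Most neighbours overlap, and Lgals2 and Tff3 lie to the right in replicate 3 while Krt8, Krt18 and Krt19 lie to the left.

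Some genes outside that list had high counts over many annotated exon bases, the length by which RPKM divides. Scd2, a stearoyl-CoA desaturase, had 2638, 2625 and 2908 CPM but only 498.4 ± 29.2 RPKM. Pabpc1, the cytoplasmic poly(A)-binding protein, had 3211, 3234 and 3188 CPM, a spread of 23.1 CPM around a mean of 3211. Krt7, a keratin of ductal and transitional epithelia, had 2814, 2259 and 1306 CPM.

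Among the transcription factor genes of the lists, 65 of 95 reached a mean of 1 RPKM and 36 reached 10 RPKM. Hnf4a, which drives enterocyte genes and is the gene the study deletes in its other arm, stood first with 186.9 ± 21.3 RPKM, rank 223 of the 17959 genes ranked. It lies at chr2:163506808-163572910. Elf3, an epithelial ETS factor, stood beside it with 186.5 ± 11.1 RPKM, and the ranges of both genes overlapped. Cdx1, a caudal homeobox factor of intestinal identity, had 132.4 ± 10.2 RPKM, and Atf4, the effector of the integrated stress response, had 130.9 ± 4.3. Cdx1 lay below Elf3 and Atf4 lay above Myc without overlap. Next came Myc with 90 ± 13.9 RPKM, Cdx2, the other intestinal caudal factor, with 86.3 ± 10.5 and Srebf2, the regulator of sterol synthesis, with 83.2 ± 0.252. Klf5, a Kruppel-like factor of proliferating crypts, had 53.2 ± 7.25 RPKM, and Xbp1, a factor of the unfolded protein response, had 52.9 ± 11.6. Hnf4g, the paralog of Hnf4a, closed the first 10 with 97, 94 and 214.1 CPM and 51.3 ± 26.1 RPKM. Of the 9 pairs of neighbours among these 10 genes, 3 did not overlap.

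For 69 families of related genes, the share of each member in the summed RPKM of its family was computed in every library. The lists named 458 members, of which 357 had a row in the table, and the others were not analysed here. The leading member held more than 50% in 49 families by the mean of 3 libraries, and in 41 of them in every library. It held more than 90% in 10 families, and the median share of a leader was 58.9%. The same gene led in all 3 libraries in 56 families, and in 44 it lay above the next member without overlap. Shares depend on the exon length assigned to each gene. With the median transcript length in place of the union of exons, another member led in 15 families, among them the GATA, ErbB, EphB, D-type cyclin and metallothionein families.

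**Figure D2:**
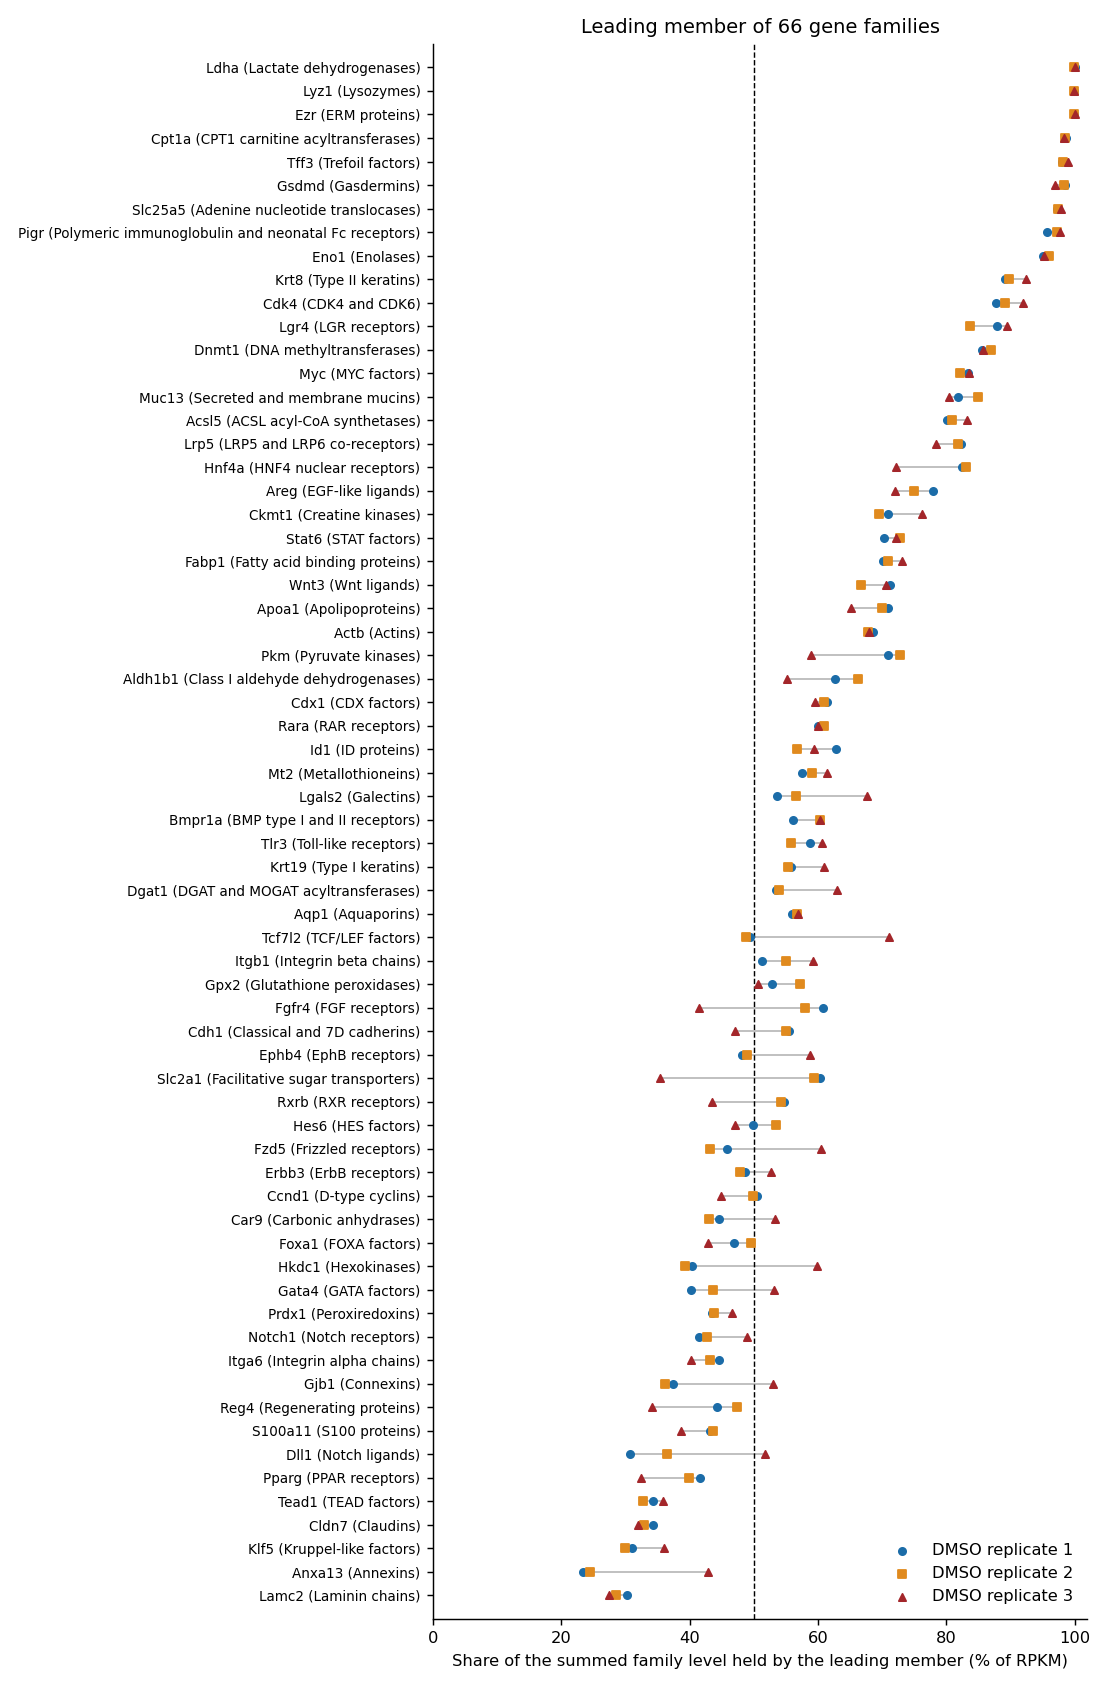
Share of the summed family RPKM held by the leading member of 66 of the 69 families, with 1 point per DMSO library and a dashed line at 50%. Families at the top have a single dominant member in every library, and the widest gaps between replicate 3 and the others belong to Slc2a1, Tcf7l2, Dll1, Hkdc1 and Anxa13.

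In 10 families the leading member held over 90% in the mean. Ldha, the muscle-type lactate dehydrogenase chain, had 1014, 1100 and 1702 CPM while Ldhb had at most 0.109 CPM, so that Ldha held 99.99% of the pair in the mean. Lyz1, the Paneth cell lysozyme, had 371.4, 475.5 and 424.1 CPM, whereas Lyz2, the lysozyme of macrophages, had 0.0834, 0.109 and 0.195 CPM. The 2 lysozyme genes share 6.22% of the 75-base windows of Lyz1, so reads of each can mostly be told from the other. Ezr, the ezrin that ties microvillar actin to the membrane, held 99.97%, beside Msn at 0.611, 0.544 and 0.13 CPM. Cpt1a, the liver-type carnitine acyltransferase of fatty acid entry into mitochondria, held 98.5%. Tff3 held 98.4% of the trefoil factors, and Tff2, a gastric member, had 0.0834 to 0.195 CPM. Gsdmd, the gasdermin cut by inflammatory caspases, held 97.9% of its family, from 234.1, 217.9 and 147.6 CPM. Slc25a5 held 97.5% of the adenine nucleotide translocases, Pigr held 96.8% of the immunoglobulin transport receptors and Eno1 held 95.4% of the enolases. Krt8 held 89.2%, 89.8% and 92.4% of the type II keratins in replicates 1, 2 and 3, a share that depends on the length used. It was 73.9% without length correction and 50.8% with the median transcript length.

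The families of the intestinal transcription programme were less one-sided. Hnf4a held 82.5%, 83.1% and 72.2% of the HNF4 pair in replicates 1, 2 and 3. The lower share in replicate 3 went with the higher level of Hnf4g there. Cdx1 held 60.6% ± 1.04 (SD, n = 3) beside Cdx2. Gata4 and Gata5 did not separate: Gata4 had 128.8, 133.1 and 197.2 CPM and 39.2 ± 9.81 RPKM, and Gata5 had 117.2, 101.5 and 87.4 CPM and 31.1 ± 4.55 RPKM. Gata6 followed with 14.7 RPKM. Of the FOXA pioneer factors, Foxa1 led with 46.5% ± 3.4 over Foxa3 with 37.6% and was above it in every library. Myc held 83% ± 0.749 of the MYC genes and Stat6 held 71.7% ± 1.32 of the STAT genes. Tcf7l2 and Tcf7, partners of beta-catenin, were near equal in replicates 1 and 2, where Tcf7l2 held 49.4% and 48.8%, whereas in replicate 3 it held 71.1%. Tcf7 had 17.1, 17 and 7.73 CPM. Of the retinoid X receptors Rxra had 13.4, 13.7 and 21.3 RPKM and Rxrb had 16.1, 16.2 and 16.4 RPKM, so that Rxra led in replicate 3 alone. Without length correction Rxra led in all 3 libraries.

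Wnt3, the Wnt ligand that Paneth cells supply to the crypt base, was the only ligand of its family with a mean of at least 1 RPKM. It had 15.5, 16.1 and 11.2 CPM, 4.64 RPKM on average, and held 69.5% ± 2.42 of the family. It lies at chr11:103774150-103817957. The next ligand, Wnt9b, had 2.31, 3.08 and 1.82 CPM. Wnt7b had 2.42, 3.02 and 1.2 CPM, and the other 9 ligands with a row did not reach 1 CPM in every library. Wls, the carrier of Wnt proteins to the cell surface, had 48.2, 49.4 and 40.3 CPM, and Porcn, the acyltransferase that lipidates them, had 13.3, 11.3 and 8.67 CPM. On the receiving side Fzd5 led the Frizzled receptors with 151.9, 149.3 and 256 CPM, followed by Fzd7 with 77.7, 84.6 and 76.2 CPM. Lrp5 held 80.8% ± 2.13 of the LRP5 and LRP6 pair. Lgr4, the broadly expressed R-spondin receptor, held 87% ± 3 beside the stem cell receptor Lgr5, which had 55.4, 77.3 and 48.2 CPM. The secreted inhibitors with a row were near zero, Notum at 0.25, 0.136 and 0.0325 CPM and Sfrp5 at 0.111, 0.218 and 0.065 CPM. All 10 genes of the beta-catenin destruction complex and its partners reached 10 CPM in every library, led by Ctnnb1, the gene of beta-catenin, with 1383, 1302 and 1113 CPM.

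Among the other signalling families, Notch1 led the Notch receptors with 44.4% ± 4 over Notch2. Of the Notch ligands Jag1 had 11.6, 8.22 and 6.41 RPKM and Dll1 had 10.2, 10.8 and 16.4 RPKM, and Jag1 held the larger share in replicate 1 alone. Areg, an EGF receptor ligand, had 94.7, 73.4 and 52.9 CPM and held 75% ± 3 of the EGF-like ligands with a row. Erbb3, the kinase-poor partner of ERBB2, had 42.3 RPKM and Erbb2 had 36.3 RPKM, with overlap, whereas Egfr itself had 6.09 RPKM. Ephb4 led the EphB receptors by RPKM with 34.4. Ephb2, a receptor of crypt positioning, had more counts, 262.8, 261.3 and 202 CPM, over more annotated exon bases. Bmpr1a held 58.9% ± 2.45 of the BMP receptors. Tlr3, the sensor of double-stranded RNA, held 58.4% ± 2.49 of the Toll-like receptors with 23.7, 23.3 and 21.3 CPM.

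In the cell cycle families Cdk4 held 89.6% ± 2.11 beside Cdk6. Ccnd1 and Ccnd2, the D-type cyclins that activate both kinases, were level with 48.4% and 48.3%, and Ccnd3 made up the rest. Dnmt1, the maintenance DNA methyltransferase of dividing cells, held 86.1% ± 0.735, although another member led with the median transcript length. Actb held 68.1% ± 0.442 and Actg1 30.8% ± 0.517 of the actins with a row. Cldn7 and Cldn3 led the claudins, with 314.7 and 269.5 RPKM and overlapping ranges. Cdh1, the epithelial cadherin, and Cdh17, the intestinal cadherin that lacks a catenin-binding tail, had 251.8, 243.9 and 213.8 RPKM and 202.4, 199.99 and 240.7 RPKM, with overlapping ranges.

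Metabolic families mixed enterocyte and general isoforms. Fabp1, the liver-type fatty acid binding protein, held 71.4% ± 1.55 and Fabp2, the intestinal form, held 27.3% ± 1.19. Apoa1 held 68.7% ± 3.07 of the apolipoproteins per kilobase, and Apob, the scaffold of chylomicrons, had 860.9, 709.4 and 1051 CPM on a long transcript. Pkm, the pyruvate kinase of dividing cells, held 71%, 72.8% and 58.9%, the remainder being Pklr, the form of liver and red cells. Of the hexokinases Hk2 led by RPKM in replicates 1 and 2 and Hkdc1 in replicate 3, where Hkdc1 had 162.7 CPM against 90.9 and 82.6 CPM before. Slc2a1, the basal glucose transporter, held 60.3%, 59.4% and 35.4% of the sugar transporters. Slc2a5, the fructose transporter, had 24.2, 25.4 and 96 CPM and held the larger share in replicate 3 alone. Car9, a carbonic anhydrase of the basolateral membrane, led its family with 114.5, 115.4 and 163.7 CPM. Gpx2, the gastrointestinal glutathione peroxidase, held 53.6% ± 3.32. The metallothioneins Mt2 and Mt1, which bind zinc and copper, had 154.1, 172.3 and 405.8 CPM and 237.4, 250 and 536.1 CPM.

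Marker lists were read for each cell type that such cultures could hold. In bulk RNA, fewer cells of a type and less RNA per cell cannot be told apart. Enterocyte markers were present throughout, with all 30 at 1 CPM or more and 21 at 100 CPM or more in every library. Fabp1 had 380.9, 351.5 and 686.5 CPM, and Apoa1 had 704.7, 560 and 893.6 CPM. The hydrolase Sis, sucrase-isomaltase, had 905.8, 878 and 2573 CPM. Lct, the lactase of the suckling period, was the lowest of the list by RPKM with 10.3, 11.3 and 20.6 CPM. The 30 markers summed to 8760, 7959 and 13861 CPM. All 19 epithelial identity genes reached 1 CPM, and Epcam, the pan-epithelial adhesion molecule, had 1184, 1115 and 1130 CPM. Of the 14 genes of brush border structure, 13 reached 10 CPM, led by Vil1, the villin of microvilli, with 926.5, 837 and 887.8 CPM.

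Stem cell and proliferation genes were present throughout. Of the 20 stem cell genes with a row, 20 reached 1 CPM and 19 reached 10 CPM in every library. Olfm4, a secreted glycoprotein of crypt base columnar cells, had 942, 1199 and 1168 CPM, and Hopx had 113.6, 118.4 and 99.4 CPM. Ascl2, the factor that maintains the stem cell state, had 39.3, 35.8 and 14.7 CPM. All 23 proliferation genes reached 10 CPM. Pcna, the clamp of DNA polymerase, had 255.9, 267.4 and 239.9 CPM, and Cdc20, an activator of the anaphase-promoting complex, had 163.7, 166.7 and 149.7 CPM. All 23 were lower in replicate 3 than in both other libraries, by a median of 0.177 on the log2(CPM + 1) scale against the mean of replicates 1 and 2. Over all 12300 genes averaging 1 CPM or more, 5269 were lower in replicate 3 than in both others. Replicates 1 and 2 also differed in this list. The median of replicate 1 minus replicate 2 was -0.112 for the proliferation genes and 0.00509 over all 12300 genes.

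Paneth cell genes were led by Defa24 with 440.5, 492.5 and 605.9 CPM. Spink4, which goblet cells also make, had 219.4, 244.9 and 418.8 CPM. Itln1, the intelectin of Paneth and goblet granules, had 581, 628 and 770.3 CPM. Ang4, an antimicrobial ribonuclease, had 237.8, 257 and 226.9 CPM, and Mmp7, the protease that activates pro-defensins, had 271.1, 299.8 and 196.7 CPM. Of the 18 listed genes, 17 reached 1 CPM in every library. Most of the other listed alpha-defensins are uncertain, since they share most of their sequence with other genes. Only 8.67% of the 75-base windows of Defa17 and 2.65% of those of Defa5 occur in no other gene, against 93.3% of those of Defa24. The share was 43.6% for Defa21, and Defa26 was the exception among the others with 85.9%.

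Goblet cell genes were led by Tff3 and Spink4, and all 14 with a row reached 1 CPM. Fcgbp, a mucus-stabilising protein, had the most counts with 1175, 1128 and 2212 CPM. Muc2, the gel-forming mucin, had 68.8, 44 and 158.7 CPM. All 14 were higher in replicate 3 than in both other libraries, by a median of 0.791 on the log2(CPM + 1) scale, against 5170 of all 12300 genes averaging 1 CPM or more. Of the mucins, the membrane-bound Muc13 held 82.4% ± 2.33 by RPKM.

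Enteroendocrine genes were low, with 17 of 24 at 1 CPM and 4 at 10 CPM in every library. Reg4 had 104.5, 103.9 and 148.8 CPM, and Chgb, a granin of hormone granules, had 148.9, 136.5 and 193.9 CPM. The highest hormone was Gip, the glucose-dependent insulinotropic peptide of the proximal gut, with 15.8, 12.4 and 18.2 CPM. Sst, somatostatin, had 0.584, 0.898 and 2.11 CPM. Tuft cell genes were lower still. None of the 12 with a row reached 10 CPM. Sh2d6 had 1.31, 1.14 and 1.79 CPM and Avil had 2.5, 2.72 and 2.18 CPM, while Trpm5, the taste-type cation channel, had 3.28, 3.27 and 4.48 CPM. Of the M cell genes, Ccl9 had 43.5, 40.6 and 72.7 CPM and Tnfrsf11a, the receptor of RANKL, had 48.2, 43.4 and 44.4 CPM. Spib, the factor required for M cells, had 1.17, 1.06 and 1.66 CPM.

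Some genes of fetal-like or regenerating epithelium were abundant in replicates 1 and 2. Of the 7 with a row, 6 reached 1 CPM, 5 reached 10 CPM and 3 reached 100 CPM in every library. Clu, the chaperone clusterin, had 1710, 1404 and 577.1 CPM, and Ly6a, the surface protein Sca-1, had 208.1, 221.5 and 95.3 CPM. Msln, mesothelin, had 606.2, 471.8 and 242.5 CPM. All 6 genes of the list with a mean of at least 1 CPM were lower in replicate 3 than in both other libraries, by a median of 1.29 on the log2(CPM + 1) scale, against 5269 of all 12300 genes at that level. The list summed to 2976, 2514 and 1095 CPM.

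Regional markers were mixed and rest on few genes each. Of the 10 proximal genes with a row, 7 reached 10 CPM and 4 reached 100 CPM in every library. For the 7 distal genes with a row these counts were 4 and 0, and for the 5 colon genes 1 and 1. Of the proximal list, Fabp1 and Apoa4 were the highest, with Apoa4 far below Fabp1 by RPKM, whereas Pdx1, the duodenal factor, had 1.39, 1.33 and 1.17 CPM. Cybrd1, the duodenal ferric reductase, had 0.556, 0.844 and 0.292 CPM. Of the distal list, Guca2a, guanylin, had 60.2, 70.7 and 88.6 CPM and Nr1h4, the bile acid receptor, had 28.4, 27.4 and 35.9 CPM. The ileal bile acid binding protein Fabp6 had 0.111, 0.381 and 0.357 CPM. The colon list was led by Prdx6, which many tissues make, with Ceacam20 next at 8.17, 6.45 and 12.7 CPM. Of 9 Hox genes with a row, 2 reached 1 CPM in every library, Hoxa3 with 6.5, 5.33 and 5.91 CPM and Hoxa2 with 1.14, 1.36 and 1.72 CPM. Gkn3 and Tff1 were the highest of the stomach genes, with 15.5, 18.4 and 10.4 CPM and 10.8, 10.1 and 8.48 CPM.

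Markers of cell types outside the intestinal epithelium were low. None of the immune, fibroblast, endothelial, nerve, pancreas and liver genes with a row reached 10 CPM in every library. Several were nonetheless well above the level of 3 counts. The 8 immune genes with a row summed to 5.98, 6.15 and 6.82 CPM, led by Cd68 with 2.92, 2.88 and 2.31 CPM and Itgam with 1.58, 1.36 and 2.83 CPM. Ptprc, the gene of the leukocyte antigen CD45, had 0, 0.0817 and 0.065 CPM. The 6 fibroblast and smooth muscle genes summed to 5.64, 5.36 and 9.49 CPM, most of it Vim with 4.64, 4.14 and 7.5 CPM, and Col1a1, a collagen of fibroblasts, had 0.222, 0.218 and 0.0325 CPM. Of the 5 endothelial genes, Lyve1 had 3.45, 5.33 and 6.21 CPM and Pecam1 at most 0.357 CPM. Of the 5 nerve and glia genes, Ret had 4.72, 5.04 and 5.98 CPM and S100b at most 0.13 CPM. For pancreas and liver, Ttr had 4.14, 4.16 and 9.62 CPM, Cela1 had 6.39, 6.97 and 8.19 CPM, and Alb had at most 0.136 CPM. The epithelial label was thus met by all 19 epithelial identity genes. The regional lists differed in how many genes reached 10 CPM but rest on few genes, and place along the intestine was not tested.

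**Figure D3:**
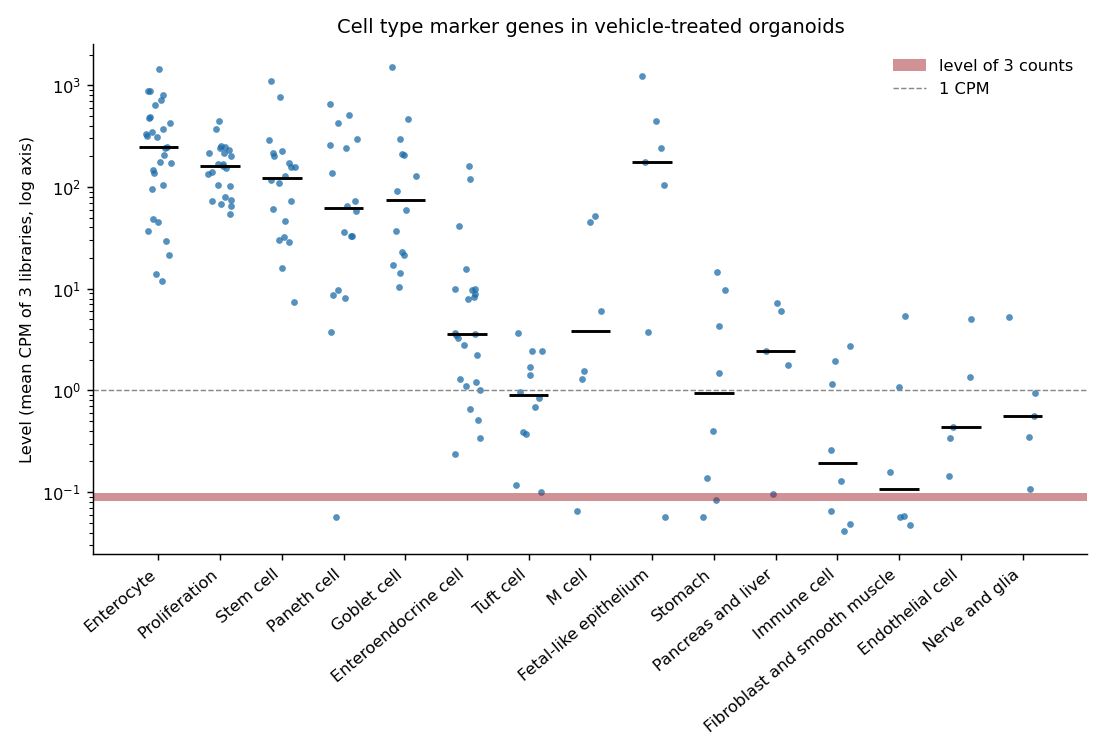
Mean level in CPM of 3 DMSO libraries (log axis) of each marker gene with a row in the table, by cell type, with the median of each list as a bar. The band marks the level of 3 counts and the dashed line 1 CPM. Enterocyte, proliferation and stem cell markers lie almost entirely above 10 CPM. Immune, fibroblast, endothelial and nerve markers lie mostly below 1 CPM, and the median of the pancreas and liver list is 2.42 CPM.

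The SD of log2(CPM + 1) had a median of 0.112 over the 12300 genes averaging 1 CPM or more. The biological coefficient of variation estimated by edgeR was 0.156 over 14544 genes. It was 0.184 without replicate 1, 0.194 without replicate 2 and 0.0528 without replicate 3. Among the 9354 genes averaging 10 CPM or more, none differed by 2-fold or more between replicates 1 and 2. Replicate 3 was at least 2-fold above their mean for 146 genes and at least 2-fold below it for 63. Pearson's r of log2(CPM + 1) across these genes, which are not independent replicates, was 0.997 between replicates 1 and 2, 0.971 between 1 and 3 and 0.973 between 2 and 3.

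The spread was larger than counting error at every level. Genes of 100 to 1000 CPM had a median coefficient of variation of 6.5% over 3 libraries, where counting error alone would give a median of 1.1%. For replicates 1 and 2 alone the median was 2.55%, where counting error would give 0.887%. At 1 to 10 CPM these values were 15.2% and 7.83% for 3 libraries and 8.57% and 6.35% for replicates 1 and 2.

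**Figure D4:**
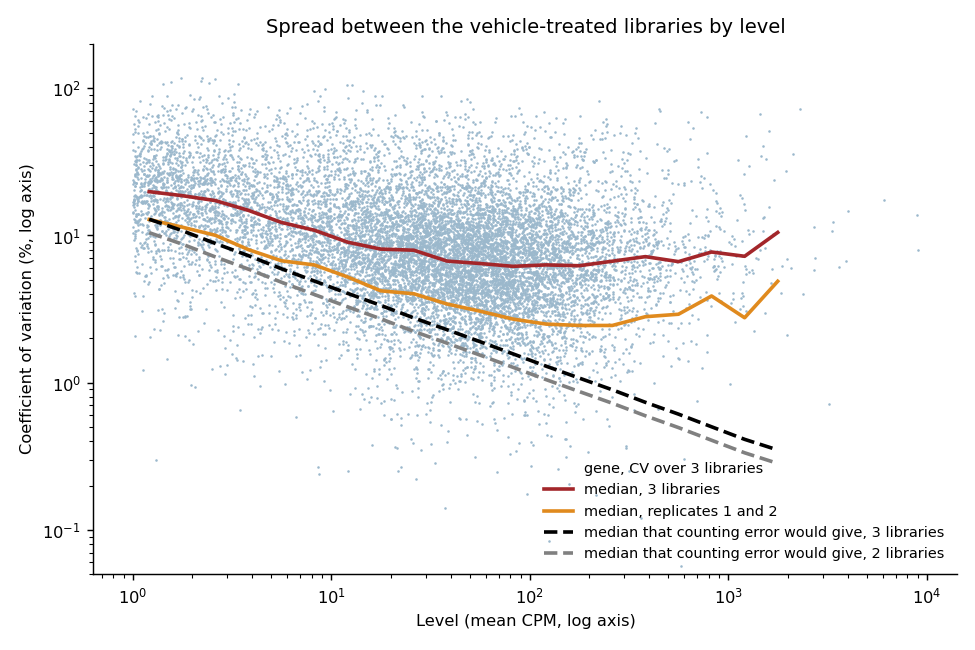
Coefficient of variation over the 3 DMSO libraries (log axis) of each gene with a mean of at least 1 CPM, against its level (log axis). Solid lines are medians for all 3 libraries and for replicates 1 and 2, and dashed lines are the medians that counting error alone would give. Both solid lines stay above their dashed lines at high levels, and the line for replicates 1 and 2 lies below that for all 3.

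The most variable genes all had replicate 3 as the library farthest from the median, 15 of 15. Replicate 3 was the highest for 7 of them and the lowest for 8. The choice by SD largely sets this, because no gene averaging 10 CPM or more differed 2-fold between replicates 1 and 2. Over all 9354 genes at that level, replicate 3 was farthest for 63.5%. Lama3, a laminin chain of the epithelial basement membrane, had the largest SD, with 82.3, 44 and 8.97 CPM. Cyp1b1, a cytochrome P450 induced through the aryl hydrocarbon receptor, had 30.6, 19.3 and 3.25 CPM, and Dok2, an adaptor of tyrosine kinases, had 24.9, 15.4 and 2.5 CPM. Tnfrsf11b, osteoprotegerin, had 42, 37.6 and 7.31 CPM, and Thbs1, the matrix protein thrombospondin, had 71, 63.4 and 13 CPM. Slc4a11, Vill and Plekhs1 were likewise lowest in replicate 3. On the other side Adh4, an alcohol dehydrogenase, had 5.25, 4.84 and 28.3 CPM, and Akr1c14, an aldo-keto reductase of steroids, had 3.56, 6.01 and 26.6 CPM. Slc16a3, a lactate exporter, had 10, 18.3 and 57.6 CPM. G6pc, the glucose-6-phosphatase of gluconeogenesis, had 20, 15 and 72.7 CPM, and Ces1d, a carboxylesterase, had 6.14, 6.78 and 30.7 CPM. Slco2b1, an organic anion carrier, had 7.92, 9.74 and 36.5 CPM, and Reg1, a regenerating protein, had 7.09, 9.39 and 33.7 CPM.

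The most constant genes were of general cell function. Pcbp1, a poly(C)-binding protein, had 576.8, 577.4 and 577.2 CPM, an SD of 0.327 CPM. Psma5, a proteasome chain, had 125.4, 125.5 and 125.6 CPM, and Rac1, the small GTPase, had 362.5, 363.4 and 363 CPM. Tiprl, Clptm1l, Oxsr1, Ap1g1, Mrps16, Foxn3 and Pard3 completed the 10. Such agreement is below the counting error of a single library for these genes, so their order at the bottom of the ranking is not resolved. Psma5 shares 21.2% of its 75-base windows with Gm8394, and 64.8% occur in no other gene.

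The deviation of replicate 3 went by gene list. Of the 23 genes of xenobiotic metabolism, 22 were higher in replicate 3 than the mean of replicates 1 and 2, with a median difference of 1.11 in log2(CPM + 1). Gstm1, a glutathione transferase, had 524.5, 460.3 and 1355 CPM, and Gsta4 had 463.1, 434.1 and 569 CPM. Enterocyte markers were higher in 29 of 30 with a median of 0.834, the exception being Krt20 with a difference of -0.02. Glycolysis genes were higher in 14 of 15 with a median of 0.43, the exception being Hk2. ER folding genes were higher in 14 of 14 with a median of 0.228, and P4hb, the protein disulfide isomerase, had 1026, 1019 and 1569 CPM. Tricarboxylic acid cycle genes were higher in 16 of 17 with a median of 0.2. Enteroendocrine genes were higher in 17 of 19 with a median of 0.372. Stem cell genes were lower in 15 of 20 with a median of -0.285, and Paneth cell genes were higher in 12 of 17 with a median of 0.0323. Cytosolic ribosomal protein genes were higher in 78 of 83 with a median of 0.118. That list was not particular to replicate 3, since its median of replicate 1 minus replicate 2 was -0.119. Over all 12300 genes averaging 1 CPM or more, 6134 were higher and the median was -0.00125, a balance that the TMM scaling itself sets. Other measures also set replicate 3 apart. It had the fewest counts, and Gm42418, an annotated lincRNA named here after its values were seen, had 1049, 1208 and 2549 CPM. The part of depth or of Gm42418 in the deviation was not tested.

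**Figure D5:**
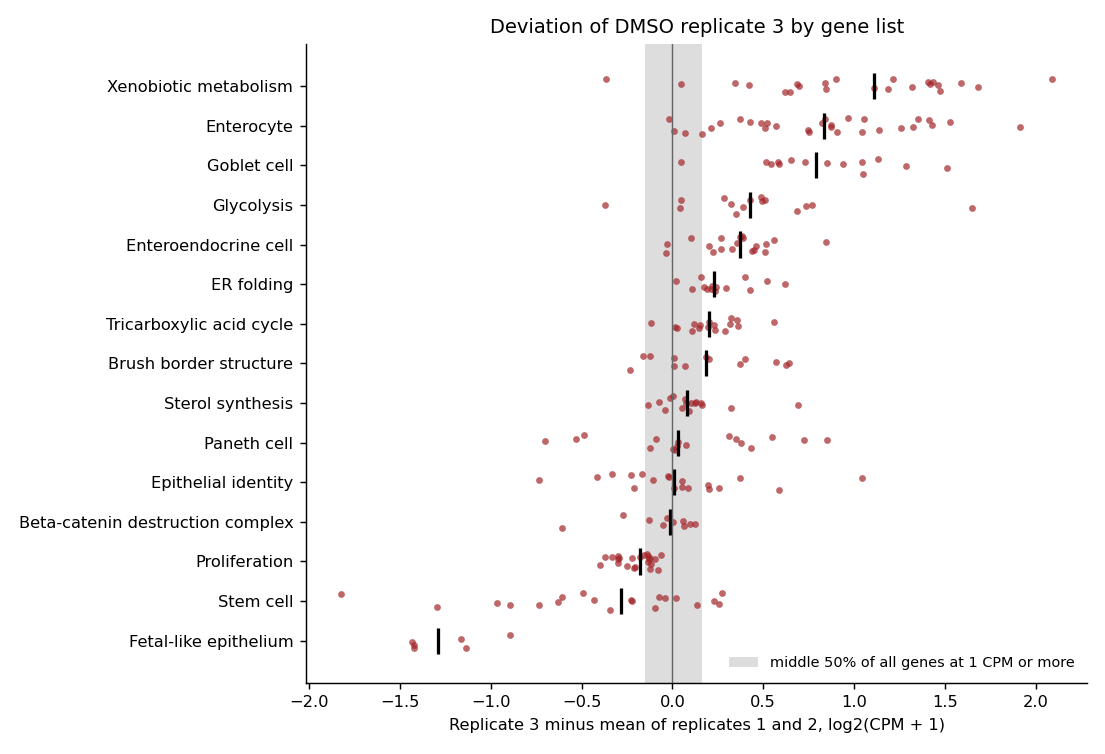
Difference of replicate 3 from the mean of replicates 1 and 2 in log2(CPM + 1) for each gene of 15 lists with a mean of at least 1 CPM, with the median of each list as a bar. The grey band holds the middle 50% of all genes. Xenobiotic, enterocyte and goblet lists lie to the right and the fetal-like list to the left.

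Promoters were read for the genes at both ends of the spread. The windows are those of RefSeq on GRCm38.p6, 250 bases before to 50 bases after each annotated start. A window matched 7509 of the 8997 protein-coding genes averaging 10 CPM or more on the chromosomes that the promoter table covers. The letters TATAAA, the core of a TATA box, were searched on the gene's strand in the 60 bases before the start. They occurred in 1.8% of these genes and in 2.87% of all 32851 windows of the table. The genes were sorted by SD into 10 groups of equal size. In the group with the largest SD the letters occurred in 47 of 737 genes (6.38%), against 0.54% to 2.53% in the other 9 groups. The median number of CG dinucleotides in the 300 bases was 14 in that group and 21 to 23.8 in the others. Sorted by the difference between replicates 1 and 2, which leaves replicate 3 out of the ranking, the top group held the letters in 4.99% of genes against 0.397% to 2.25% in the others. Sorted by level, the group with the highest RPKM held them in 4.7%. A match is a description of these letters and not a site in use.

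The following windows of 60 bases end at the base before the start and show both ends of the spread and a pair of enterocyte markers, with TATAAA in capitals for the variable genes and the markers and CG in capitals for the constant genes. Of the 15 most variable genes 9 had a window and 2 of these, G6pc and Reg1, held the letters. Of the 10 most constant genes 8 had a window and 0 held them. Of the 30 enterocyte markers 27 had a window and 4 of these held the letters, Fabp1, Krt20, Apob and Mgam, of which the first 2 are shown as examples.
G6pc (chr11:101367656-101367715, plus strand): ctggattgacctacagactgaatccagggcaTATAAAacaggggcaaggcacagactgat
Reg1 (chr6:78425923-78425982, plus strand): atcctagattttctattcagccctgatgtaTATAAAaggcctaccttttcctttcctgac
Fabp1 (chr6:71199819-71199878, plus strand): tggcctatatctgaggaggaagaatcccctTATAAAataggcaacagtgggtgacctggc
Krt20 (chr11:99438154-99438213, minus strand): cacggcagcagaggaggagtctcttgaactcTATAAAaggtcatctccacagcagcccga
Pcbp1 (chr6:86526190-86526249, minus strand): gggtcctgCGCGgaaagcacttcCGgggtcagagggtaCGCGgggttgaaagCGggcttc
Psma5 (chr3:108256866-108256925, plus strand): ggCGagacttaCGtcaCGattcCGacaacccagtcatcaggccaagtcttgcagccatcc
Oxsr1 (chr9:119322428-119322487, minus strand): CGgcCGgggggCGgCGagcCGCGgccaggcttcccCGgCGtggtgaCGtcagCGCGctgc
The letters begin 29 bases before the start in G6pc and Krt20 and 30 bases before it in Reg1 and Fabp1. Of the markers not shown, they begin 30 bases before it in Mgam but 60 bases before it in Apob, at the edge of the search. The windows of Pcbp1, Psma5 and Oxsr1 hold 6, 4 and 11 CG dinucleotides, those of G6pc, Reg1 and Fabp1 hold 0 and that of Krt20 holds 2. Over all windows read, the number ran from 0 to 10 with a median of 1 in the most variable genes, the highest being Slc16a3, and from 1 to 11 with a median of 6 in the most constant genes.

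Several mitochondrial genes cannot be read at face value. While mt-Co1 had 7996 CPM or more in each library, mt-Co2, the second oxidase chain, had 4.39, 4.08 and 4.13 CPM, and mt-Co3 had 3.11, 4.35 and 3.74 CPM. mt-Atp6, mt-Nd3 and mt-Nd4l had between 0.25 and 4.13 CPM. Of the 75-base windows of mt-Co2, 99.5% also occur in the nuclear copy Gm28661, which itself had 4.31, 4.65 and 5.26 CPM, and for mt-Co3 99.9% occur in Gm28437. For mt-Nd1, with 3716, 3235 and 3020 CPM, 100% of the windows occur in no other gene. The levels of the shared genes therefore depend on how reads with more than 1 match were counted, which is not given in the sources used here.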

How the data were processed

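The authors deposited raw read counts per gene for 6 libraries, 3 with DMSO and 3 with 4OHT. Per the submitters' processing notes, reads were demultiplexed with bcl2fastq 1.8.4 and aligned with STAR 2.4.0f1 to GRCm38. The counting program and its strand setting are not given in the sources used here, so reads of overlapping genes may not be separable. Per the file headers, the deposited table also holds the authors' normalized values (a score rounded to whole numbers), log2 values and p-values, none of which were used. Every gene of the table had at least 10 counts over the 6 libraries.

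Counts were divided by the library total and a TMM factor from all 6 libraries (edgeR 4.0.16, R 4.3.3, 14544 genes kept by filterByExpr), and summarised with Python 3.11.15. RPKM is CPM per kilobase of the union of exons in GENCODE M21, matched for 18358 of 18448 genes. Genes of at least 200 exon bases were ranked. Spread is the SD of log2(CPM + 1). Depth was 31537100 to 36102703 counts, so counting error is small above 10 CPM. One group is described, no groups were compared and no p-value was computed. Named genes are Hnf4a, Hnf4g and Wnt3, the 25 highest by CPM and by RPKM, members of the 99 gene lists, the 15 largest and 10 smallest SDs at 10 CPM or more (predicted genes left out), and the 10 highest listed transcription factors. The genes and lists were chosen with earlier results of these data known. The spread calculation was tested on simulated data. Alternatives changed the scaling (DESeq2 1.42.0 size factors, library totals), the low-count filter, the pseudocount, the gene length and the libraries used. Some named genes and the families that hold them are not reported here, though counts and totals over lists include them.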

Additional observations from a re-analysis of the deposited data

How the results depend on the processing

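The spread between libraries depended on replicate 3. Leaving out each DMSO replicate in turn gave a median SD of log2(CPM + 1) of 0.0529 to 0.115, and a common biological coefficient of variation of 0.0528 to 0.194, the lowest of each without replicate 3. Library scaling, pseudocount and low-count filter left the median SD between 0.0987 and 0.117. The numbers of genes past 1 or 10 CPM, the concentration of counts and the number of families with a dominant member stayed within 1.5 times under each alternative run. Scaling does not enter shares of counts, nor the pseudocount the coefficient of variation, and those alternatives were not run. The share of the leading member moved by more than its SD between libraries in 40 of 69 families with the longest transcript, 50 with the median transcript length and 51 without length correction, and another member led in 7, 15 and 16 families. Leaving out replicate 1, 2 or 3 gave another leader in 2, 3 and 3 families. No paired analysis was possible because 1 group is described and no groups are compared. Depth limits statements on genes near 3 counts.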

Other observations

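The genes of this section were chosen after their values were seen. Replicates 1 and 2 differed most in Fos, an immediate early gene, with 56.3, 29.6 and 34 CPM in replicates 1, 2 and 3, a difference of 0.90 in log2(CPM + 1) between replicates 1 and 2. Dbp and Tef, a pair of factors with circadian expression in many tissues, had 4.89, 9.61 and 16.1 CPM and 38.2, 66.5 and 75.6 CPM, lowest in replicate 1 for both. Cyp3a11, a drug-metabolising cytochrome P450, had 64.8, 38.2 and 162 CPM.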
